A study of Mus musculus with 16 samples.

Results

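The proteasome genes of the mouse kidney were followed in males that lack peroxisomal multifunctional protein 2. The genes were all those on the array whose single platform symbol begins with Psm, a letter from a to g and a digit. Of the 20355 probes, 51 met this rule, and they stand for 41 genes, each of which had enough values to be tested. Among the 41, Psmc3ip and Psme3ip1 are named as interacting proteins of Psmc3 and Psme3, the former being a meiotic recombination factor, and they are kept apart. That leaves 39 genes on 46 probes, namely 17 subunits of the core particle (Psma and Psmb), 15 subunits or chaperones of the regulatory cap (Psmc and Psmd), 4 activators (Psme), 1 inhibitor (Psmf1) and 2 assembly chaperones (Psmg).

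The animals were 4 males labelled MFP2-/-, 15 weeks old, and the control was a single pool of kidney RNA from 5 males of 15 weeks labelled wt (Swiss strain SWR/Ola Hsd). No source used here gives the genetic background of the mutants or how the allele was made. Each mutant's RNA was hybridised on 4 two-colour arrays against the pool, 2 with the mutant in Cy5 and 2 with the mutant in Cy3, which gave 16 arrays. The pool counts as 1 control sample, so the spread among wild-type kidneys was not measured, and the main test sets the 4 mutants' log2 ratios against 0. Mice are numbered in the order of deposit. For mouse 1 the titles and the source names carry different identification numbers, while the mouse ID is the same on its 4 arrays.

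Values are log2 ratios of mutant over pool, so 0 means that mutant and pool gave equal signal. This direction is likely rather than stated, since channel 1 is the mutant in the labels of all 16 arrays, whichever dye it carried. The 16 arrays held 19737 to 20228 values each. MFP2 is encoded by Hsd17b4, whose array probes disagreed: probe 1446 was at 0.43 ± 0.34 and probe 4590 at -0.91 ± 0.80 (SD, n = 4 mice). Where these probes lie relative to the deleted part of the gene is not known here, and the labels were used as given.

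The proteasome is the protease that degrades proteins tagged with ubiquitin in the cytosol and nucleus. Its core is a barrel of stacked rings, in which Psma subunits form the outer gates and Psmb subunits the inner chamber with the catalytic sites of Psmb5, Psmb6 and Psmb7. The Psmc ATPases and most Psmd proteins build the cap that binds, unfolds and feeds substrates, whereas Psme proteins form alternative caps that do not need ubiquitin. Interferon can exchange the catalytic subunits for Psmb8, Psmb9 and Psmb10, which form the immunoproteasome.

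As a group the 39 genes lay slightly above the pool, with the highest values in 1 animal, and no single gene passed the test. Their mean over the 4 mutants was above 0 for 34 genes and below 0 for 5, that is 87.2% above 0 against 50.1% of the 16140 rows tested (9846 named genes and 6294 probes with no single symbol). Of the named genes alone, 54.1% lay above 0. The size of this excess depends on the direction taken for the ratios: read as Cy5 over Cy3, 23 of the 39 genes lay above 0, 59% against 45.6% of all rows, with a median of 0.045. The median of the 39 means was 0.095, beside 0.0004 for all rows and 0.012 for the named genes. The means ran from -0.25 for Psme1 to 0.28 for Psmb1. None of the 39 passed limma's test against 0 after Benjamini-Hochberg adjustment over all rows, where 0% of rows did, and the smallest adjusted p of a member was 0.548. At an unadjusted limma p under 0.05, 4 genes lay higher (Psmb1, Psmb3, Psma4 and Psme2) and 0 lower. These 4 are 10.3% of the members, against 9.04% of all rows, made of 5.83% higher and 3.21% lower. Above 0 in every mouse were 6 genes, 15.4% against 10.2% of all rows, and below 0 in every mouse were 0, against 9.42%. The median SD over the 4 mice was 0.18, larger than the median difference itself.

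Most genes had their highest value in mouse 2. The median over the 39 genes was 0.0065, 0.26, -0.0076 and 0.087 in mice 1 to 4. Mouse 1 had 21 genes above 0 (51.6% of all rows were), mouse 2 had 34 (48.5%), mouse 3 had 18 (50.8%) and mouse 4 had 30 (48%). Mouse 2 was the highest of the 4 mice for 30 genes, 76.9% against 30.6% of all rows and 33.5% of the named genes. This order does not hold if the values are read as Cy5 over Cy3, where mouse 2 was the highest for 12 genes (30.8% against 28.8%) and the lowest for 16 (41% against 33.9%). Mice 1 and 3 had medians close to 0, and mouse 4 lay between them and mouse 2. In the mean of the other 3 mutants alone, 25 of the 39 genes lay above 0, against 51.9% of all rows, and the median was 0.026. Without mouse 2 the median kept its sign and was smaller than without any other mouse, where it ran from 0.085 to 0.11.

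**Figure D1:**
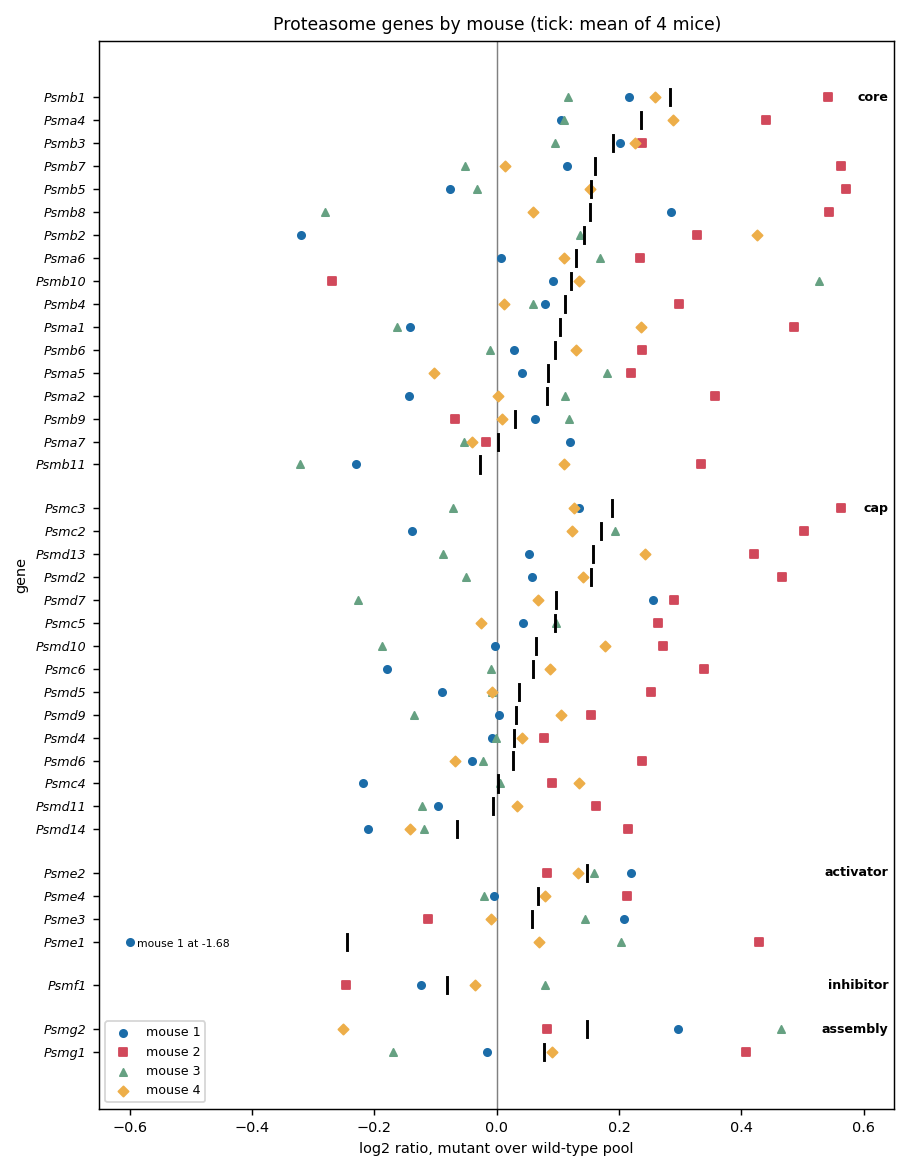
Each of the 39 proteasome genes is a row, and the horizontal axis is the log2 ratio of mutant over wild-type pool, with 1 symbol per mouse and a black tick at the mean of the 4 mice. Mouse 2 is the symbol farthest to the right in 30 of the 39 rows, and Psme1 in mouse 1, at -1.68, is drawn at the edge of the axis.

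The same mouse stood apart on each of its arrays and with either dye. The median of the 39 genes ran from 0.17 to 0.30 over mouse 2's 4 arrays. On the other 12 arrays it ran from -0.055 to 0.12, so the ranges did not overlap. With mouse 2's RNA in Cy5 the medians of the 2 repeats were 0.17 and 0.29, and with it in Cy3 they were 0.27 and 0.30. Core and cap each showed this: the core medians of mouse 2 ran from 0.22 to 0.36 against a highest value of 0.14 elsewhere, and the cap medians from 0.15 to 0.41 against 0.11. The arrays of mouse 2 also differed in other measures, with 19737 to 19816 values against 19939 to 20228 on the rest, and a median absolute deviation of all ratios of 0.35 to 0.40 against 0.23 to 0.40. After all arrays were scaled to a common deviation, the mouse 2 median was 0.23, and without centring of the arrays it was 0.25. Read as Cy5 over Cy3, the medians of mice 1 to 4 were 0.045, -0.011, 0.054 and 0.033, which makes mouse 2 the lowest, so the distinction of mouse 2 as the highest rests on the likely direction.

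**Figure D2:**
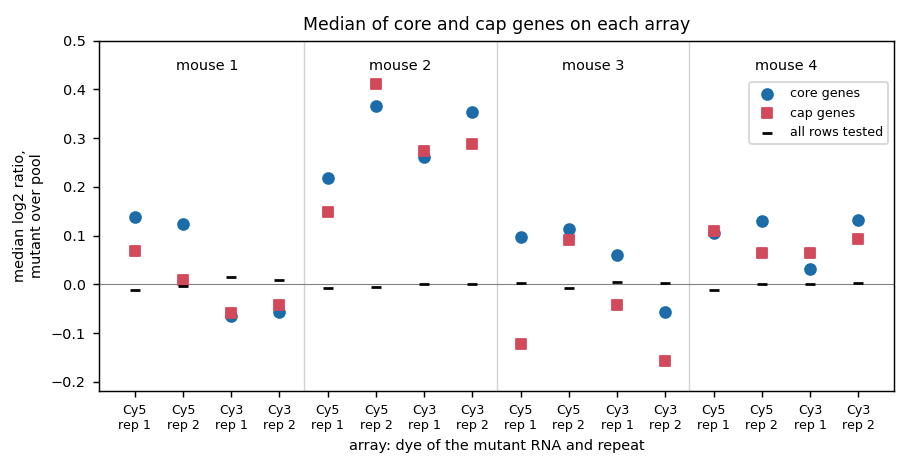
Circles are the median log2 ratio (mutant over pool, vertical axis) of the 17 core genes and squares that of the 15 cap genes on each of the 16 arrays, grouped by mouse along the horizontal axis and labelled by the dye of the mutant RNA and the repeat; dashes mark the median of all rows tested. Core and cap medians on mouse 2's 4 arrays lie above those on the 12 arrays of the other mice.

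In the core particle 16 of the 17 genes had a mean above 0 and the median was 0.12, with mouse medians of 0.062, 0.33, 0.095 and 0.11 in mice 1 to 4. All 6 Psma genes and all 7 of the Psmb genes of the standard inner ring lay above 0, with medians of 0.094 and 0.15. Psmb1, a structural subunit of the inner ring, had the highest mean of the 39 genes. Its log2 ratio was 0.22, 0.54, 0.12 and 0.26 (mice 1 to 4). The mean was 0.28 ± 0.18 (SD, n = 4; limma adjusted p = 0.548), and 14 of its 16 arrays were above 0. Mouse 2 was the highest and mouse 3 the lowest, and every mouse lay above the pool. With the 16 arrays fitted singly and the mouse as a random block, Psmb1 was the 1 of 39 members to pass limma's test (adjusted p = 0.0283). In all, 221 of the 16140 rows did. The estimated correlation of arrays of a mouse was 0.035 in that fit, so it counted arrays that share RNA as nearly independent. Psma4, which forms part of the outer ring, was also above the pool in every mouse and highest in mouse 2, with 0.10, 0.44, 0.11 and 0.29 (mice 1 to 4). Its mean was 0.24 ± 0.16 (SD, n = 4), with 13 of 16 arrays above 0.

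Psmb3, another structural subunit, had the smallest SD of the 5 core genes with the smallest p. It stood at 0.20, 0.24, 0.095 and 0.23 (mice 1 to 4), with a mean of 0.19 ± 0.065 (SD, n = 4; limma adjusted p = 0.548). Mice 1, 2 and 4 were close together and mouse 3 lower, and 15 of 16 arrays were above 0. Psma6, of the outer ring, was at 0.0065, 0.23, 0.17 and 0.11 (mice 1 to 4), again above the pool in every mouse but with mouse 1 next to 0. Psmb4, whose 2 probes had means of 0.071 and 0.15, read 0.079, 0.30, 0.060 and 0.011 (mice 1 to 4). For Psmb4 the mean of 0.11 ± 0.13 (SD, n = 4) was smaller than its spread.

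Other core genes crossed 0 between mice. Psma1, an outer ring subunit, was at -0.14, 0.49, -0.16 and 0.24 (mice 1 to 4): mice 2 and 4 lay above the pool and mice 1 and 3 below it. Its 4 arrays of mouse 2 ran from 0.32 to 0.69. Psma7, also of the outer ring, was the best repeated of all the members, with an SD between repeat arrays of 0.094, and its mean of 0.0022 was the closest to 0 in the core: it read 0.12, -0.018, -0.053 and -0.040 (mice 1 to 4), with mouse 1 the only one above the pool. Psmb11, the catalytic subunit of the thymic cortex, was the core gene with a mean below 0, at -0.23, 0.33, -0.32 and 0.11 (mice 1 to 4). No intensities were used here, so whether its probe was above background in kidney is unknown. The remaining core genes Psma2, Psma5 and Psmb2 had means of 0.082, 0.084 and 0.14.

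The 3 standard catalytic subunits and the 3 interferon-induced forms that replace them were compared side by side because they mark which kind of proteasome a tissue makes. Psmb5, with the chymotrypsin-like activity, was at -0.076, 0.57, -0.032 and 0.15 (mice 1 to 4). Psmb7, with the trypsin-like activity, was at 0.12, 0.56, -0.051 and 0.014 (mice 1 to 4). Psmb6, with the caspase-like activity, was at 0.028, 0.24, -0.011 and 0.13 (mice 1 to 4) as the mean of 2 probes. In each of the 3 the highest value was that of mouse 2, and the other mice lay between -0.076 and 0.15. The 4 arrays of mouse 2 ran from 0.20 to 0.87 for Psmb7, against -0.21 to 0.42 on the other 12. The means over mice were 0.15 ± 0.30 for Psmb5, 0.096 ± 0.11 for Psmb6 and 0.16 ± 0.28 for Psmb7 (SD, n = 4), with limma adjusted p values of 0.674, 0.651 and 0.655.

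Of the induced forms, the only one measured with small error was Psmb9, the counterpart of Psmb6. It was at 0.062, -0.068, 0.12 and 0.0090 (mice 1 to 4), a mean of 0.030 ± 0.079 (SD, n = 4) with a repeat SD of 0.14. Mouse 2 was its lowest mouse, unlike in the 3 standard subunits. Psmb8, the counterpart of Psmb5, was at 0.28, 0.54, -0.28 and 0.060 (mice 1 to 4). Its value in mouse 2 rested on 1 array: the 4 readings were -0.32 and 3.48 with the mutant in Cy5 and -0.015 and -0.97 with it in Cy3. Psmb10, the counterpart of Psmb7, was at 0.092, -0.27, 0.53 and 0.13 (mice 1 to 4), and its readings in mouse 2 were 1.44 and -2.96 in Cy5 and 0.77 and -0.33 in Cy3. With repeat SDs of 0.999 and 1.18, differences of the size seen in the standard subunits were not detectable for Psmb8 and Psmb10.

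**Figure D3:**
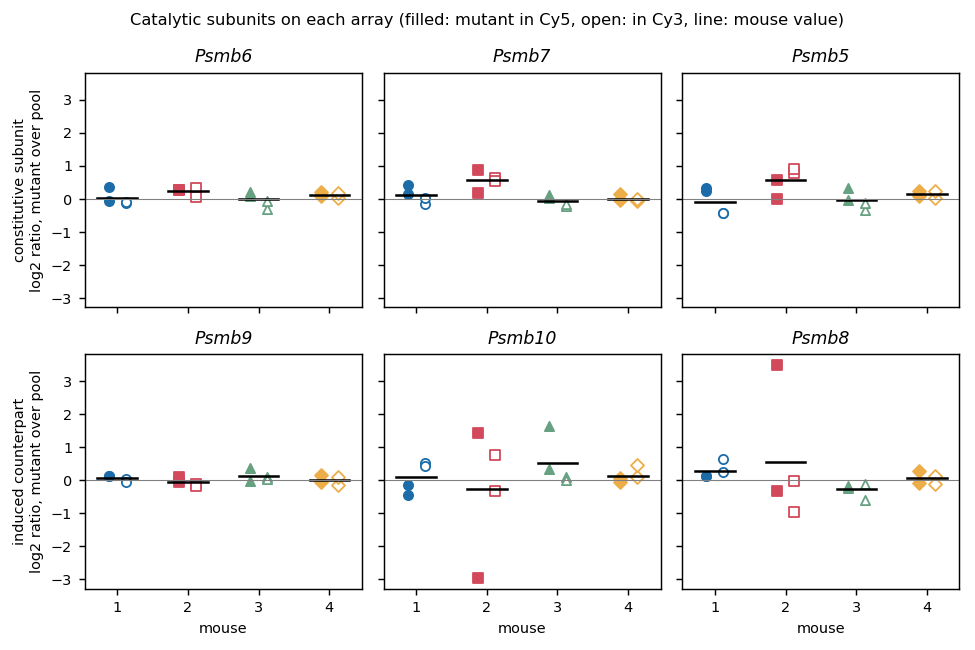
The upper row shows the standard catalytic subunits Psmb6, Psmb7 and Psmb5 and the lower row their induced counterparts Psmb9, Psmb10 and Psmb8, with the log2 ratio (mutant over pool) of every array against the mouse; filled symbols have the mutant in Cy5, open ones in Cy3, and the line is the mouse value. Arrays of Psmb8 and Psmb10 scatter from -2.96 to 3.48 in mouse 2, while those of Psmb9 stay near 0.

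The sequence just upstream of these genes is shown because the standard catalytic genes and the induced ones are known to answer to different transcription factors. The 150 bases before the annotated start come from RefSeq (GRCm38.p6), written 5′ to 3′ on the gene's strand, with capitals marking every match to 3 motifs searched on both strands: TGACNNNGC (the core of the antioxidant response element), CCAAT (the NF-Y box) and CGGAAG (the ETS box). Psmb5 is at chr14:54617996-54618145 (minus strand), Psmb6 at chr11:70525207-70525356 (plus strand), Psmb8 at chr17:34198045-34198194 (plus strand), Psmb9 at chr17:34187331-34187480 (minus strand) and Psmb10 at chr8:105938393-105938542 (minus strand). Psmb3 at chr11:97703284-97703433 (plus strand) and Psma4 at chr9:54950709-54950858 (plus strand) are added as core genes that lay above the pool in every mouse.
Psmb5: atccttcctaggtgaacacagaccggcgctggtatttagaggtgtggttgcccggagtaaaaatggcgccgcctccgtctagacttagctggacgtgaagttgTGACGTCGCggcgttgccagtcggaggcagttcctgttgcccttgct
Psmb6: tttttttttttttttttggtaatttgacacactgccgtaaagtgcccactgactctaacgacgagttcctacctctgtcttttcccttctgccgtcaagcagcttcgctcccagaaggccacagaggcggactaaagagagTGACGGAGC
Psmb8: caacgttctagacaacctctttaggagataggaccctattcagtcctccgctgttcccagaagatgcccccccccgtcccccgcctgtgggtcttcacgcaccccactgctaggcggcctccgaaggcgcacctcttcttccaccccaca
Psmb9: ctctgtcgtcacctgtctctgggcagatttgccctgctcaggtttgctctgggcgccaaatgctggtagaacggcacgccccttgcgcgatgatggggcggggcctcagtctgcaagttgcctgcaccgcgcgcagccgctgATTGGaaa
Psmb10: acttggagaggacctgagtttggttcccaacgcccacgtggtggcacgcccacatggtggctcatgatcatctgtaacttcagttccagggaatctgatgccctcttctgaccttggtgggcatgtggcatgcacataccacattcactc
Psmb3: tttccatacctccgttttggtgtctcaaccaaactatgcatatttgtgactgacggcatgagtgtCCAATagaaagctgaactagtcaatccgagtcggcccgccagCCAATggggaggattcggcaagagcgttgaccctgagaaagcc
Psma4: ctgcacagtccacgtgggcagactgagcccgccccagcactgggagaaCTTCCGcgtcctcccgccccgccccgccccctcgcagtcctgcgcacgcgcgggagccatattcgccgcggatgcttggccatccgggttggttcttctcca

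Psmb5 and Psmb6 each held 1 match to TGACNNNGC in this stretch, TGACGTCGC at position -47 from the start in Psmb5 and TGACGGAGC at position -9 in Psmb6, and the 3 induced genes held none of these letters there. Psmb3 held 2 CCAAT boxes, and Psma4 held the ETS letters on the opposite strand. Over windows from 250 bases before to 50 bases after the start, 33 of the 39 genes had an entry, with 36 windows. TGACNNNGC was in 5 of them (Psmb5, Psmb6, Psmc6, Psmd9 and Psme4), 13.9%, against 14.2% of the 10220 windows of genes on the array, and CCAAT was in 33.3% against 37.2%. CGGAAG was in 50% against 26.8%, with 10 of 14 cap windows and 5 of 15 core windows. These matches are letters in a window and describe the genes, not the arrays' values.

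In the cap 13 of the 15 genes had a mean above 0, with a median of 0.060, and the cap median changed sign when mouse 2 was left out. The mouse medians were -0.0075, 0.26, -0.051 and 0.087 in mice 1 to 4. All 15 cap genes lay above 0 in mouse 2, 14 of them at their highest there, whereas 3 of 15 lay above 0 in mouse 3. In the mean of mice 1, 3 and 4 the cap median was -0.0045 with 7 of 15 genes above 0, while the core median was 0.049 with 14 of 17. No cap gene reached an unadjusted limma p under 0.05.

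The ATPases of the cap's base, which unfold substrates, gave 5 means above 0 of 5 measured, with a median of 0.095 and mouse medians of -0.14, 0.34, 0.0057 and 0.12. Psmc3 was at 0.13, 0.56, -0.071 and 0.13 (mice 1 to 4), a mean of 0.19 ± 0.27 (SD, n = 4). Psmc2 was at -0.14, 0.50, 0.19 and 0.12 (mice 1 to 4), so that mouse 1 lay below the pool and the others above it. The orientations of Psmc2 disagreed, with a mean of -0.14 with the mutant in Cy5 and 0.48 in Cy3. Psmc5, on 3 probes with means of 0.032, 0.074 and 0.18, was at 0.044, 0.26, 0.097 and -0.025 (mice 1 to 4). Psmc6 was well repeated (repeat SD 0.14) and stood at -0.18, 0.34, -0.0088 and 0.087 (mice 1 to 4), so mouse 2 was high, mouse 1 low and the other mice close to the pool. Psmc4 had a mean of 0.0029.

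Among the Psmd subunits of the cap, 5 of 7 had a mean above 0, all 7 lay above 0 in mouse 2, and 0 of 7 in mouse 3. Psmd13, of the cap's lid, was at 0.052, 0.42, -0.088 and 0.24 (mice 1 to 4), with 13 of 16 arrays above 0. Psmd2, the scaffold on which ubiquitin shuttles dock, was at 0.058, 0.47, -0.051 and 0.14 (mice 1 to 4). Both were highest in mouse 2 and below the pool in mouse 3. Psmd14, the deubiquitinase that removes ubiquitin chains from substrates, had the lowest cap mean, at -0.21, 0.21, -0.12 and -0.14 (mice 1 to 4), so mouse 2 was the only animal above the pool. Psmd11, a lid subunit with 2 probes at -0.068 and 0.058, was at -0.095, 0.16, -0.12 and 0.033 (mice 1 to 4). In mouse 2 these probes read -0.0045 and 0.33, so its value above 0 there came from 1 probe. The other subunits Psmd4 (a ubiquitin receptor), Psmd6 and Psmd7 had means of 0.028, 0.027 and 0.096. Psmd5, Psmd9 and Psmd10, which are chaperones of base assembly and not part of the finished cap, had means of 0.037, 0.032 and 0.064.

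Of the 4 activators 3 had a mean above 0, with a median of 0.062, and 3 of them disagreed between the dye orientations. Psme2, which forms the interferon-induced activator ring with Psme1, was at 0.22, 0.083, 0.16 and 0.13 (mice 1 to 4), above the pool in every mouse and lowest in mouse 2. Its mean was 0.15 ± 0.057 (SD, n = 4; limma adjusted p = 0.548), yet it came from the arrays with the mutant in Cy3, at 0.38, and not from those with Cy5, at -0.079. Its partner Psme1 was at -1.68, 0.43, 0.20 and 0.069 (mice 1 to 4). The 4 readings of mouse 1 were -5.12 and -1.33 in Cy5 and 1.45 and -1.73 in Cy3. Without mouse 1 the Psme1 mean turned from -0.25 to 0.23.

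Psme4, the large activator found mainly in the nucleus, was at -0.0047, 0.21, -0.020 and 0.080 (mice 1 to 4). Its orientations were opposed, at -0.52 in Cy5 and 0.66 in Cy3, so its small mean is the average of larger opposite values. Psme3, the nuclear activator, was the only activator with matching orientations, 0.062 and 0.054. It read 0.21, -0.11, 0.14 and -0.0085 (mice 1 to 4), with mouse 2 the lowest. Psmf1, the inhibitor that binds the core, was at -0.12, -0.25, 0.079 and -0.036 (mice 1 to 4), a mean of -0.082 ± 0.14 (SD, n = 4), and it too was lowest in mouse 2.

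Psmg1 and Psmg2 together chaperone the assembly of the outer ring. Psmg1 was at -0.017, 0.41, -0.17 and 0.090 (mice 1 to 4), highest in mouse 2 as were 13 of the 17 core genes. Psmg2 was at 0.30, 0.082, 0.46 and -0.25 (mice 1 to 4), highest in mouse 3, and its orientations were -0.43 in Cy5 and 0.72 in Cy3. The genes kept apart as interacting proteins had means of -0.0028 for Psmc3ip and 0.020 for Psme3ip1.

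Agreement between the dye orientations was examined for every member, because each mouse value is the average of both. A mean above 0 was found for 29 genes with the mutant in Cy5 (45.5% of all rows) and for 28 with it in Cy3 (55.2%). Taking both, 18 of the 39 genes had a mean above 0 in both orientations, against 20.5% of all rows, 0 had a mean below 0 in both, and 21 had opposite signs. The share of all rows below 0 in both or with opposite signs was not counted. Of the 18, 9 were core genes (of 17) and 7 cap genes (of 15). Psmb1 was at 0.43 and 0.14, and Psma4 at 0.28 and 0.19, in Cy5 and Cy3. The core median was 0.23 in Cy5 and 0.074 in Cy3, and the cap median 0.071 and 0.11. Repeat arrays of the same mouse and dye differed with a median SD of 0.20 for the members and 0.26 for all rows. Among the 27 genes with a repeat SD of up to 0.3, 24 had a mean above 0, the median was 0.082, and 23 were highest in mouse 2, whose median over them was 0.25.

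**Figure D4:**
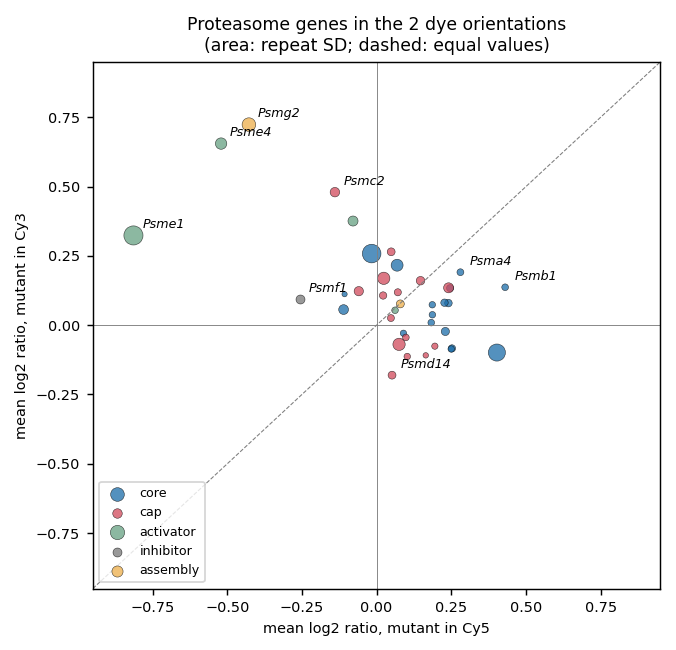
Each symbol is 1 of the 39 genes, coloured by class, at its mean log2 ratio with the mutant in Cy5 (horizontal) and in Cy3 (vertical), with an area that grows with the SD between repeat arrays. Of the 32 core and cap genes, 16 lie to the upper right of the origin, above 0 in both orientations, and the members with the smallest repeat SD (Psma7, Psmd4, Psmc6 and Psmb9) lie outside it; Psme1, Psme4 and Psmg2 lie far into the upper left.

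Whether the mice differed from each other by more than repeat arrays of the same mouse was tested with limma's F-test over the 16 arrays with a dye term. After adjustment none of the 39 genes passed, against 0.189% of the 15856 rows tested. At an unadjusted p under 0.05 there were 10 genes, 25.6% against 11.2% of all rows, 6 of them in the core and 4 in the cap. The smallest were Psmb7 (adjusted p = 0.17), Psma1 (adjusted p = 0.204) and Psmc6 (adjusted p = 0.215). Mouse 2 was the highest mouse for each of these 3 genes. Without mouse 2, 1 of the 39 genes had an unadjusted limma p under 0.05 between the remaining mice, against 8.15% of all rows. With all 4 mice but the values read as Cy5 over Cy3, 3 of the 39 genes did, against 6.98% of all rows. Arrays of a mouse share its RNA, so this test is about these 4 animals.

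The rest of the ubiquitin system was read from lists of genes named for their roles, as counts without a test of the list. Of 32 listed proteasome partners and shuttle factors 19 were measured, 15 had a mean above 0 and the median was 0.088, with mouse medians of -0.046, 0.14, 0.063 and 0.092. At an unadjusted limma p under 0.05 there were 2, both higher, 10.5% of those measured against 5.83% of all rows. Zfand5, which binds the cap and raises its activity, was at 0.036, 0.50, 0.15 and 0.39 in mice 1 to 4 (mean 0.27 ± 0.21, SD, n = 4). Nfe2l1, the transcription factor that induces proteasome genes when proteasomes are inhibited, was at 0.18, 0.40, 0.15 and 0.086 (mean 0.20 ± 0.14). Nfe2l1 and Zfand5 lay above the pool in all 4 mice. The mean of Nfe2l1 came mostly from the arrays with the mutant in Cy3, at 0.37, and was 0.038 in Cy5. Zfand5 was at 0.37 in Cy5 and 0.16 in Cy3. None of the genes on these lists passed the adjusted limma test.

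Ubiquitin-conjugating enzymes gave 20 of 35 measured, 12 above 0, with a median of 0.032. Among them 1 had an unadjusted limma p under 0.05 in each direction, Ube2d1 at 0.25 ± 0.15 and Ube2a at -0.25 ± 0.20 (SD, n = 4). The higher one is 5% of those measured, against 5.83% of all rows. The list of ubiquitin ligases also holds cullin regulators (Cand1, Gps1 and Cops genes). Of its 46 entries 29 were measured, 17 above 0, with a median of 0.013. At that threshold 2 of its genes lay higher, 6.9% against 5.83% of all rows. These were Cops7a, a subunit of the complex that removes Nedd8 from cullins, at 0.45 ± 0.39, and the ligase Nedd4 at 0.30 ± 0.27. Of 16 listed ubiquitin-like proteins and activating enzymes 4 were measured, 3 above 0, with Sumo2 at 0.14 ± 0.14 and Uba6 at 0.076 ± 0.12. The lists of conjugating enzymes and of ligases had medians nearer to 0 than the proteasome and its partners. Mouse 2 had the highest median in both, at 0.062 for conjugating enzymes and 0.0715 for ligases. In the conjugating enzymes mouse 4 was close, at 0.056. For ubiquitin-like proteins and activating enzymes mouse 2 was also the highest, at 0.22.

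Genes of MHC class I presentation, which uses the peptides that proteasomes release, were listed with interferon signalling genes (Irf1, Irf9, Stat2, Ifngr1, Ifngr2, Jak1 and Jak2 measured). This mixed list did not lie above the pool as a group: 14 of 24 were measured, 7 above 0, with a median of -0.011. Tap1, a subunit of the peptide transporter that lies between Psmb9 and Psmb8 in the genome, was at -0.77, -0.48, -0.49 and 0.075 (mice 1 to 4), a mean of -0.42 ± 0.35 (SD, n = 4). Its unadjusted limma p was under 0.05, and 3 of 4 mice lay below the pool. H2-K1, which carries peptides to the surface, was at 0.14 ± 0.061, with 0.31 with the mutant in Cy5 and -0.029 in Cy3. The neighbours Psmb9, Tap1 and Psmb8 did not share a sign in mice 1, 2 and 3, and lay close above 0 in mouse 4.

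**Figure D5:**
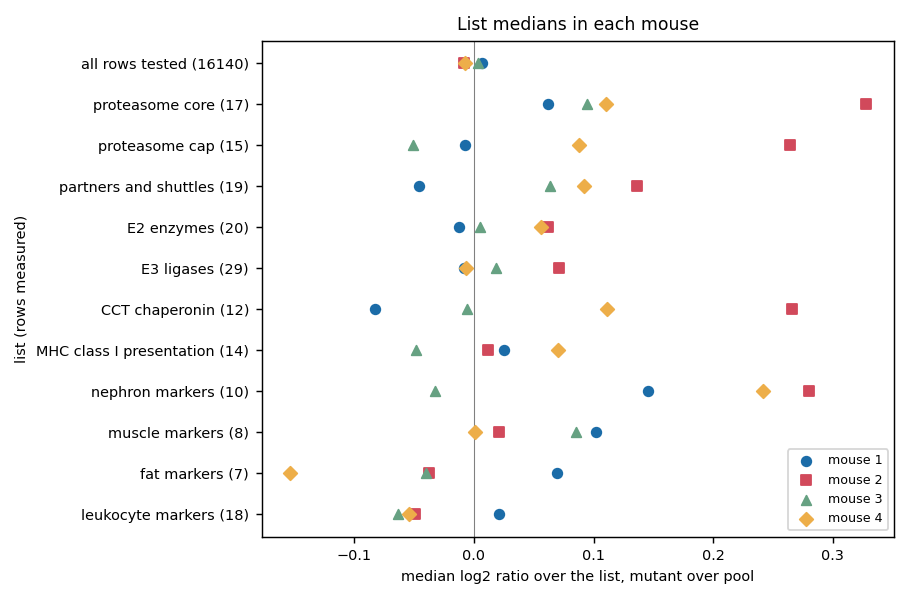
Each row is a gene list with the number of its genes measured in brackets, and the horizontal axis is the median log2 ratio (mutant over pool) over the list, with 1 symbol per mouse. Mouse 2 lies to the right for the proteasome core and cap, while all rows tested sit near 0 in each mouse. It also has the highest median for partners and shuttles, E2 enzymes, E3 ligases, CCT chaperonin and nephron markers. For MHC class I presentation and for muscle, fat and leukocyte markers another mouse is the highest.

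Marker genes of kidney and of other cell types were set beside these values, since fewer cells of a type and less RNA per cell cannot be told apart in whole tissue. Nephron markers (10 of 18 measured) had mouse medians of 0.15, 0.28, -0.032 and 0.24, so mouse 2 was the highest there too. Their means over the 4 mice ran from -0.20 to 0.56, with 7 of 10 above 0, and markers of the same segment differed: in the loop of Henle Slc12a1 was at 0.56 and Umod at -0.15, and in the proximal tubule Slc34a1 was at -0.20, Lrp2 at 0.021, Aqp1 at 0.24 and Cubn at 0.24. Leukocyte markers (18 of 29) had mouse medians of 0.021, -0.049, -0.064 and -0.054, with 5 of 18 means above 0; in mouse 2, 8 of the 18 lay above 0, from -0.58 for Tyrobp to 1.89 for Ms4a1. Muscle markers (8 of 9) had 0.10, 0.021, 0.085 and 0.00050, and in mouse 2, 5 of the 8 lay above 0, from -0.71 for Tnnt3 to 1.58 for Actn2. Fat markers (7 of 10) had 0.070, -0.038, -0.041 and -0.15, and in mouse 2, 3 of the 7 lay above 0, from -0.22 for Cidea to 0.78 for Fabp4. The part of tissue composition, of the missing values and of the wider spread on mouse 2's arrays in the proteasome values of that mouse was not tested.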

How the data were processed

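The authors deposited, per the column headers, 1 column of log ratios per two-colour array, taken here as log2; whether and how they were normalised before deposit the labels do not record. The labels do not state the log base, the background correction or the direction; the base was inferred from the size of the most extreme values. The depth of arrays is their number, and no intensities were used.

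Values above 10 in absolute size (510, none in a member) were set missing and each array was centred on its median. The arrays of a mouse were averaged within each dye orientation and then over both, and a probe was kept where 3 or more mice had values in both. Probes of the same symbol were averaged, after 13994 of the 14030 probes with 1 symbol were matched to RefSeq (GRCm38.p6) for current symbols; 6320 probes had no symbol and 5 had several. limma 3.58.1 in R 4.3.3 (lmFit, eBayes) tested the mouse values against 0, two-sided, with Benjamini-Hochberg adjustment over 16140 rows, and an F-test over the 16 arrays with a dye term compared mice over 15856 rows. Scripts were tested on simulated data.

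Values in every mouse are given for the catalytic subunits, the Psme, Psmf and Psmg genes, the 5 core and 5 cap genes with the smallest unadjusted p, the 2 with the lowest mean in each, and the 3 with the smallest p between mice. Of each pathway list the 2 genes with the smallest p are named, some by their mean and SD alone. Some lists hold an older symbol beside the current one (such as Shfm1 for Sem1), so their listed totals exceed the number of genes. Members and lists were chosen with earlier results of these data known. The exclusion of Psme3ip1 and the limit of 0.3 on the repeat SD were chosen after seeing the data. Alternatives covered centring, scaling, averaging, missing values, direction, dye, repeats, the variance prior and each mouse. Psmb1, Psmb2, Psmb7, Psmc3, Psmd7 and Psmg2 had no entry in the promoter table.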

Additional observations from a re-analysis of the deposited data

Results flagged for a closer look

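Psme1, a subunit of the interferon-induced activator, was singled out because mouse 1, at -1.68, lay far from the other 3 mice: its gap to the nearest of them was just over the share of the whole range that Dixon's test allows for 4 values. The other mice were at 0.43, 0.20 and 0.069. The 4 arrays of mouse 1 read -5.12 and -1.33 with the mutant in Cy5 and 1.45 and -1.73 in Cy3, so the repeats in Cy5 lay farther apart than the 4 mice did. In 40 groups of 4 values tested, chance flags about 1 in 20, and this was the only one.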

How the results depend on the processing

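The pool is 1 control sample, no intensities were used, and 4 mice limit the precision. Of 525 values of the 29 named genes under the alternatives, 474 kept their sign and side of the threshold, 50 changed sign, none of them past the threshold, and Psmb1 passed (0.28, limma adjusted p = 0.0283) with all 16 arrays and the mouse as a random block; the cause of the changes was not tested. In place of 0 genes, limma called 12 read as Cy5 over Cy3, 3 with the mutant in Cy5, 1 with it in Cy3 and 221 with the block, while without each mouse it called 0. Between mice it called, in place of 30, 16 with scaling, 48 with each probe alone, 51 with values on all 16 arrays, 2 read as Cy5 over Cy3, 4 with no dye term and 5 to 13 without each mouse, with 0 members in each.

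The core and proteasome medians stayed above 0 under each alternative, with lowest values of 0.049 and 0.026 without mouse 2. When each mouse was left out in turn, the cap median ran from -0.0045 (without mouse 2) to 0.087. The activator median was -0.0048 with the median of the 4 arrays, -0.094 with values on all 16 arrays, -0.40 read as Cy5 over Cy3, -0.30 in Cy5, 0.35 in Cy3 and 0.063 to 0.11 without each mouse. The assembly median was, likewise, -0.027 with the median of the arrays, -0.29 read as Cy5 over Cy3, -0.17 in Cy5, 0.40 in Cy3 and -0.058 with repeat 2.

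Without centring, Psma7 was at -0.013. With arrays scaled, Psma7 was at -0.011. With the median of the 4 arrays, Psmb8 was at -0.039, Psmd14 at 0.0026, Psme4 at -0.062 and Psmg2 at -0.20. On 1 of its 2 probes, Psmd11 was at 0.058. Read as Cy5 over Cy3, Psma7 was at -0.11, Psmb10 at -0.14, Psmc2 at -0.31, Psmc5 at -0.024, Psmd11 at 0.11, Psmd13 at -0.11, Psmd14 at 0.12, Psmd2 at -0.0067, Psme2 at -0.23, Psme4 at -0.59 and Psmg2 at -0.58. With the mutant in Cy5, Psma7 was at -0.11, Psmb10 at -0.017, Psmc2 at -0.14, Psmd11 at 0.10, Psmd14 at 0.052, Psme2 at -0.079, Psme4 at -0.52 and Psmg2 at -0.43. With the mutant in Cy3, Psma1 was at -0.023, Psmb11 at 0.056, Psmb8 at -0.099, Psmb9 at -0.029, Psmc6 at -0.076, Psme1 at 0.32 and Psmf1 at 0.094. With repeat 1, Psmb11 was at 0.018, Psmb8 at -0.037 and Psmd11 at 0.036. With repeat 2, Psma7 was at -0.022, Psmb10 at -0.12, Psme4 at -0.0080 and Psmg2 at -0.25. Without each mouse in turn, values ran for Psma7 from -0.037 to 0.021, Psmb11 from -0.15 to 0.071, Psmd11 from -0.061 to 0.034, Psme1 from -0.47 to 0.23, Psma1 from -0.024 to 0.19, Psmc6 from -0.033 to 0.14, Psmg1 from -0.032 to 0.16 and Psmb10 from -0.015 to 0.25.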

Other observations

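A list of the CCT chaperonin, the cytosolic ring that folds actin and tubulin, was also highest in mouse 2, read as mutant over pool. The list includes prefoldin subunits, of which Pfdn1, Pfdn6 and Vbp1 were measured. The other ratio direction was not examined for it. Of 15 listed genes 12 were measured, 10 had a mean above 0, and the median was 0.060. The mouse medians were -0.083, 0.27, -0.0060 and 0.11 in mice 1 to 4, and all 12 genes lay above 0 in mouse 2. Cct4 was at 0.098, 0.23, 0.15 and 0.23 (mean 0.18 ± 0.064, SD, n = 4) and Tcp1 at 0.028, 0.40, 0.055 and 0.41 (mean 0.22 ± 0.21). The dye orientations of Cct4 were opposed, at -0.15 with the mutant in Cy5 and 0.50 in Cy3. Those of Tcp1 were 0.27 and 0.17. At an unadjusted limma p under 0.05, 1 of the 12 lay higher, 8.33% against 5.83% of all rows. At that threshold 0 lay lower, and none passed the adjusted test.

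Of the other marker lists, adrenal cortex genes (5 of 8 measured) had a median of 0.011. In mouse 2, 1 of the 5 lay above 0, from -0.75 for Star to 0.35 for Fdx1. Star, at 0.20, -0.75, 0.64 and -0.042 (mice 1 to 4), passed limma's F-test between mice (adjusted p = 0.00916). Erythroid genes (2 of 9) had a median of -0.21, and 0 of the 2 lay above 0 in mouse 2. Hba-a1 was at -0.60, -0.46, -0.39 and 0.075 (mice 1 to 4), with a mean of -0.34.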
